A study of Mus musculus with 10 samples.

Results

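Polycomb repressive complex 1 (PRC1) was followed here through 9 of its genes: the chromobox readers Cbx2, Cbx6, Cbx7 and Cbx8, the PCGF subunits Bmi1 and Pcgf2, the RING subunits Ring1 and Rnf2, and the polyhomeotic subunit Phc1. They were taken by name from the table of 23358 gene rows, where each of the 9 stood on 1 row, and all 9 passed the filter on low counts that left 14344 genes for testing. The cells were MC3T3, a mouse calvarial pre-osteoblast line, kept throughout in osteogenic medium, which contained beta glycerol phosphate and ascorbic acid. The treated cultures received 5 µM GSK126, an inhibitor of the methyltransferase EZH2, at the start and again after 3 days, and were freed of it on day 6, while the comparison cultures received vehicle on the same schedule. RNA was sequenced on days 3, 6 and 10, with 1 GSK126 library and 1 vehicle library per day (6 libraries), and H3K27me3 chromatin with its input 24 hours after the first dose, with 1 library of each kind per treatment. No culture was kept on GSK126 to day 10, so removal and culture time cannot be told apart on that day.

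PRC1 and PRC2 are the main Polycomb complexes. PRC2, through EZH2, writes H3K27me3; the chromodomain of a CBX protein binds that mark and brings canonical PRC1 to it; and the RING subunit, paired with a PCGF protein, attaches ubiquitin to histone H2A. Each position in canonical PRC1 is filled by 1 of several paralogs, so the transcripts of the paralogs are compared below position by position. In osteoblast lineage cells, as in other cells, Polycomb silencing holds down developmental regulators and cell cycle inhibitors.

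Promoters of 4 of the genes are shown first, chosen by their values. Cbx6, Cbx8 and Bmi1 were the members whose GSK126 and vehicle libraries did not overlap after the scaling of library sizes used below (TMM). Phc1 had the lowest p for the change with culture time. The sequences are from RefSeq on build GRCm38.p6, the same assembly as the mm10 of the deposited files, and run 5′ to 3′ from 250 bases before the annotated start to 50 bases after it. They lie at chr15:79834284-79834583 (minus strand) for Cbx6, chr11:119040864-119041163 (minus strand) for Cbx8, chr2:18676768-18677067 (plus strand) for Bmi1 and chr6:122340178-122340477 (minus strand) for Phc1. For Phc1 the RefSeq start lies upstream of the span in the authors' table. Capitals mark CACGTG, the E-box bound by MYC and MAX type factors, and GGGCGG or its reverse complement, the GC box bound by SP1 type factors.
Cbx6: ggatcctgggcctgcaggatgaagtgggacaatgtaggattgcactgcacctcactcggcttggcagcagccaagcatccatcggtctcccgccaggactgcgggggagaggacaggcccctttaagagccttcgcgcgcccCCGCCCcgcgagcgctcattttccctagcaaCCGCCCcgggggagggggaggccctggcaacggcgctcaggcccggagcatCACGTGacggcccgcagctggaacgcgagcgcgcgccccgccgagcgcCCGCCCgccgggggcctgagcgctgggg
Cbx8: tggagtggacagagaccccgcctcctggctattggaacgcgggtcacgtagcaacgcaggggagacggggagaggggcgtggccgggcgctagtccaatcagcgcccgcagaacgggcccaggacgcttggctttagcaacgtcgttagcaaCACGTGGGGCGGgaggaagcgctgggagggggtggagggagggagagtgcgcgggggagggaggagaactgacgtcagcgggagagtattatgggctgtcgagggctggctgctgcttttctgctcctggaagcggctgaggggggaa
Bmi1: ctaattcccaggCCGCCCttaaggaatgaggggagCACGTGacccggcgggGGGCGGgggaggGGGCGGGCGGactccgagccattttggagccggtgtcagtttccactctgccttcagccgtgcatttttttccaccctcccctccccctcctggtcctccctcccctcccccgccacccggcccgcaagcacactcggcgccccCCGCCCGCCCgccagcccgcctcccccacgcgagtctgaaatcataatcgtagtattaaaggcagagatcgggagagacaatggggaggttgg
Phc1: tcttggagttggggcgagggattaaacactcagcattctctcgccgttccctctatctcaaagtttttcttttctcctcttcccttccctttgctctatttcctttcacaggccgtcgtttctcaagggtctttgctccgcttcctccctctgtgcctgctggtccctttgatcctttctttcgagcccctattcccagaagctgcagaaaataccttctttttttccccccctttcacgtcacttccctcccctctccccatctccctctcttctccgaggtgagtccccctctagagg

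Both motifs were searched on both strands, and overlapping matches were counted separately. CACGTG stood in 4 of the 8 member promoters in the RefSeq table (all members but Cbx2 had an entry), those of Cbx6, Cbx8, Bmi1 and Pcgf2, against 7.15% of 32851 mouse promoters of the same length. Its first base lay 26 bases before the start in Cbx6, 98 in Cbx8, 137 in Pcgf2 and 215 in Bmi1. GGGCGG stood in 7 of the 8, against 35.7% of all promoters, with 6 matches in Bmi1, 3 in Cbx6 and 0 in Phc1. In Cbx8 the 2 motifs lie side by side. The member promoters other than Phc1 held 61.7% to 74.0% G and C, Phc1 held 52.0%, and the median of all promoters was 52.7%. CACGTG is therefore shared by members with a negative difference for GSK126 (Cbx6, Cbx8 and Pcgf2) and by 1 with a positive difference (Bmi1). None of these differences passed the edgeR test used below. The shares of all promoters were not matched for G and C content. These matches describe the letters in the window and were not tested as binding sites.

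The libraries held 97291878 to 111537936 counts each, and the 9 members together took 0.0453% to 0.0579% of them. The ribosomal precursor Rn45s took 4.37% to 7.47%, with the higher shares on day 10. All 8 osteoblast lineage markers were detected. Their summed level was 9670 to 13400 RPKM in GSK126 and 9590 to 11400 RPKM in vehicle libraries, most of it from Col1a1 and Col1a2. All 8 had positive fitted differences for GSK126 (median 0.76 on the log2 scale), and 2 rose by the edgeR test used below: Bglap, which encodes osteocalcin, by 3.34 (SE 0.44, edgeR adjusted p = 0.0421), and Ibsp, which encodes bone sialoprotein, by 2.18 (SE 0.22, edgeR adjusted p = 0.0251). Of all genes tested, 1.01% were called higher for GSK126. Between days 3 and 10, 5 of the 8 rose (Bglap, by 5.66, and Ibsp, Spp1, Alpl and Sp7, by 0.86 to 2.19), against 14.1% of all genes. Bglap and Ibsp thus moved along with both comparisons below, while Runx2, Col1a1 and Col1a2 passed in neither. The part of the osteoblast markers in the members' values was not tested. The summed levels of adipocyte, skeletal muscle, endothelial and blood markers stayed between 0.0139 and 1.75 RPKM, and 1 muscle and 1 endothelial marker had 0 counts in all 6 libraries. The 4 neuronal markers summed to 6.36 to 49.3 RPKM in GSK126 and 2.94 to 11.1 RPKM in vehicle libraries, mostly Tubb3, and their part in the results below was not tested. In RNA pooled from many cells, fewer cells of a type and less RNA per cell cannot be told apart.

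Levels between genes are given as the authors' deposited RPKM, which scale reads by gene length and library depth, as the mean ± SD over all 6 libraries of both treatments and 3 days. Bmi1 and Cbx6 were the most abundant members, at 32.8 ± 3.41 and 26.0 ± 6.73 RPKM. Rnf2 stood at 17.4 ± 1.005 and Ring1 at 13.8 ± 1.52. Cbx8 (9.05 ± 1.61), Phc1 (8.25 ± 1.504) and Pcgf2 (5.93 ± 0.63) formed a middle group, and Cbx2 (2.82 ± 0.44) and Cbx7 (1.69 ± 0.37) were the lowest. By treatment, Bmi1 averaged 35.1 ± 3.06 RPKM in GSK126 and 30.4 ± 1.79 RPKM in vehicle libraries, and Cbx6 averaged 21.0 ± 6.17 RPKM in GSK126 and 30.9 ± 1.03 RPKM in vehicle libraries (SD, n = 3 each), so that Bmi1 stood above Cbx6 in the GSK126 means and level with it in the vehicle means. The ranges over libraries overlapped between Bmi1 and Cbx6, Cbx6 and Rnf2, Cbx8 and Phc1, Phc1 and Pcgf2, and Cbx2 and Cbx7. They did not overlap between Rnf2 and Ring1, between Ring1 and Cbx8, or between Pcgf2 and Cbx2. Cbx6 varied the most, with an SD of log2 CPM (counts scaled to the TMM-adjusted library size) of 0.395 over the 6 libraries, and Rnf2 the least, with 0.0857.

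**Figure D1:**
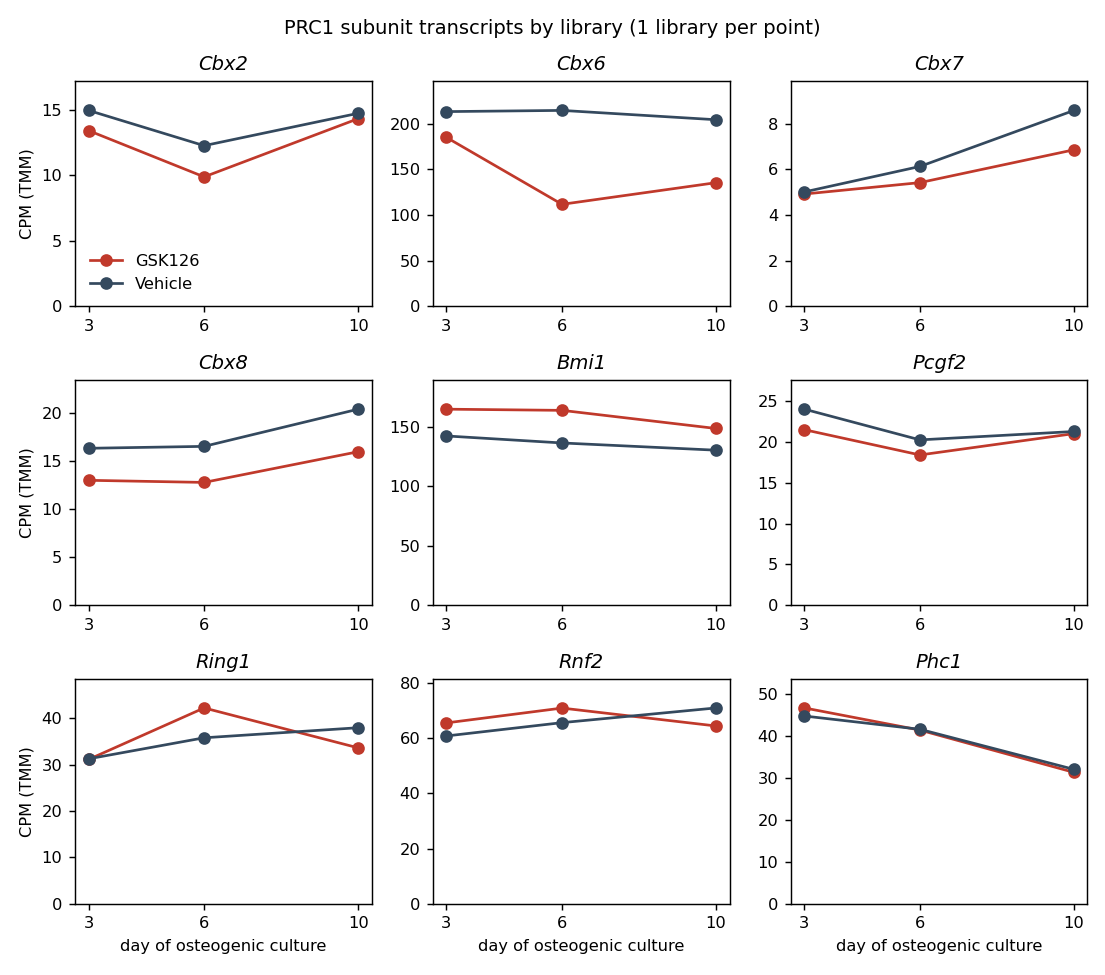
TMM-normalized CPM (y axis, from 0) of the 9 members against day of osteogenic culture (x axis), with 1 library per point, GSK126 in red and vehicle in dark blue. Cbx6 and Cbx8 lie lower and Bmi1 higher with GSK126 on each of the 3 days, while Phc1 falls along the same course in both treatments.

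The first comparison asks whether PRC1 transcripts differ between inhibitor and vehicle. The chromobox readers had lower values with GSK126 and Bmi1 a higher value, while Phc1 differed little from vehicle on any day and the RING subunits lay above vehicle on some days and below it on others. None of the 9 passed the test across all genes: with edgeR (quasi-likelihood F test, Benjamini-Hochberg adjusted p below 0.05 over all genes), 0 members were higher, against 1.01% of all genes tested, and 0 were lower, against 0.272%. At an unadjusted p below 0.05 there were 3 members (Cbx6, Cbx8 and Bmi1), against 19.6% of all genes. DESeq2 called 2 members lower, Cbx6 and Cbx8, against 4.43% of genes called lower by that tool, and limma-voom called 0. Log2 ratios were negative on all 3 days for 5 of 9 members (all 4 chromobox genes and Pcgf2), against 22.7% of all genes tested, and positive on all 3 days for 1 (Bmi1), against 22.1%. Some of the negative ratios lay near 0. Intervals of 95% for counting error alone included 0 for Cbx2 and Pcgf2 on day 10 and for Cbx7 on days 3 and 6.

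Cbx6, which encodes a chromodomain reader found in canonical PRC1, showed the largest difference. Its CPM on days 3, 6 and 10 was 184.8, 111.6 and 135.3 in GSK126 libraries and 213.1, 214.4 and 204.2 in vehicle libraries. All 3 GSK126 values lay below all 3 vehicle values, which were nearly level over time. The log2 ratio of GSK126 to vehicle was -0.21 on day 3, -0.94 on day 6 and -0.59 on day 10, with a counting 95% interval of -0.99 to -0.90 on day 6 (exact binomial on fragments, counting error only). Fitted over the 3 pairs of libraries, Cbx6 had a log2 difference of -0.58 (SE 0.15, 95% interval -0.95 to -0.21, edgeR adjusted p = 0.12; DESeq2 adjusted p = 0.00784). The difference was thus smallest on day 3 and largest on day 6, and without day 6 the fitted value was -0.40 (edgeR adjusted p = 0.376). The span of Cbx6 lies within that of Npcd, a chromodomain gene counted on a row of its own with 0 to 8 counts in GSK126 and 4 to 8 in vehicle libraries; reads that fit both genes cannot be assigned with certainty.

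Cbx8, a reader whose gene lies beside that of Cbx2, was lower by nearly the same ratio on each day. Its CPM on days 3, 6 and 10 was 13.01, 12.79 and 15.99 in GSK126 libraries and 16.35, 16.55 and 20.43 in vehicle libraries. The groups did not overlap, although both were highest on day 10. The log2 ratios were -0.33, -0.37 and -0.35, and the fitted difference was -0.35 (SE 0.083, 95% interval -0.56 to -0.15, edgeR adjusted p = 0.105; DESeq2 adjusted p = 0.0246). Between them, Cbx6 and Cbx8 made 2 of 9 members whose GSK126 libraries all lay below all vehicle libraries, a pattern that 5.94% of genes showed.

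The lower-level readers gave smaller differences. Cbx2, a reader that also compacts chromatin, had a CPM on days 3, 6 and 10 of 13.41, 9.88 and 14.32 in GSK126 libraries and 14.95, 12.26 and 14.73 in vehicle libraries, so that the groups overlapped and both dipped on day 6. Its fitted log2 difference was -0.17 (SE 0.099, 95% interval -0.42 to 0.078, edgeR adjusted p = 0.418). The summed level of 12 proliferation genes dipped on the same day, with 569, 220 and 699 RPKM in GSK126 libraries and 538, 319 and 430 RPKM in vehicle libraries on days 3, 6 and 10; its part in the course of Cbx2 was not tested. Cbx7, the reader known for supporting self-renewal in mouse embryonic stem cells, had 4.91, 5.41 and 6.85 CPM in GSK126 libraries and 5.01, 6.12 and 8.57 CPM in vehicle libraries. The Cbx7 values lay nearly together on day 3 and apart on day 10, and the fitted difference was -0.18 (SE 0.12, 95% interval -0.49 to 0.13, edgeR adjusted p = 0.504).

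Some of the reader genes are neighbours. Cbx2 and Cbx8 lie 7.2 kb apart on chromosome 11, and both had negative ratios on each day, larger in size for Cbx8. Cbx6 and Cbx7 lie 81.5 kb apart on chromosome 15. In RefSeq the span of Cbx7 also overlaps Apobec3 and that of Cbx2 the lncRNA Gm35829, and without strand their reads cannot be told apart.

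Bmi1, the PCGF subunit (PCGF4) that represses the Cdkn2a locus and sustains stem cell self-renewal, was higher on each day. Its CPM on days 3, 6 and 10 was 165.2, 164.2 and 148.9 in GSK126 libraries and 142.6, 136.7 and 130.6 in vehicle libraries. In CPM the lowest GSK126 value lay above the highest vehicle value, so Bmi1 was 1 of 9 members with this pattern, against 6.27% of genes. The separation depended on the scaling. In deposited RPKM the groups overlapped, with 31.8 in the GSK126 library of day 10 and 32.45 in the vehicle library of day 3. The log2 ratios were 0.21, 0.26 and 0.19, and the fitted difference was 0.22 (SE 0.068, 1.17-fold, 95% interval 0.051 to 0.39, edgeR adjusted p = 0.167). Pcgf2, the paralog also known as MEL18, had 21.52, 18.42 and 21.04 CPM in GSK126 libraries and 24.04, 20.27 and 21.30 CPM in vehicle libraries. The Pcgf2 groups overlapped, and the fitted difference was -0.11 (SE 0.081, 95% interval -0.31 to 0.097, edgeR adjusted p = 0.542).

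Ring1 and Rnf2 encode the paralogous ubiquitin ligases RING1A and RING1B. Ring1 had 31.14, 42.25 and 33.64 CPM in GSK126 libraries and 31.27, 35.81 and 37.98 CPM in vehicle libraries on days 3, 6 and 10. The GSK126 library was thus level with vehicle on day 3, above it on day 6 and below it on day 10. Rnf2 had 65.5, 70.9 and 64.4 CPM in GSK126 libraries and 60.8, 65.6 and 70.95 CPM in vehicle libraries, above vehicle on days 3 and 6 and below it on day 10. The fitted differences were 0.019 for Ring1 (SE 0.10, 95% interval -0.23 to 0.27, edgeR adjusted p = 0.948) and 0.027 for Rnf2 (SE 0.079, 95% interval -0.17 to 0.23, edgeR adjusted p = 0.902). Phc1, whose SAM domain links PRC1 particles, had 46.76, 41.47 and 31.37 CPM in GSK126 libraries and 44.83, 41.66 and 32.09 CPM in vehicle libraries, and a fitted difference of 0.0072 (SE 0.070, 95% interval -0.17 to 0.18, edgeR adjusted p = 0.971). The signs of these 3 fitted differences changed when a day was left out (Ring1, Rnf2 and Phc1) or under library-size scaling (Phc1).

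**Figure D2:**
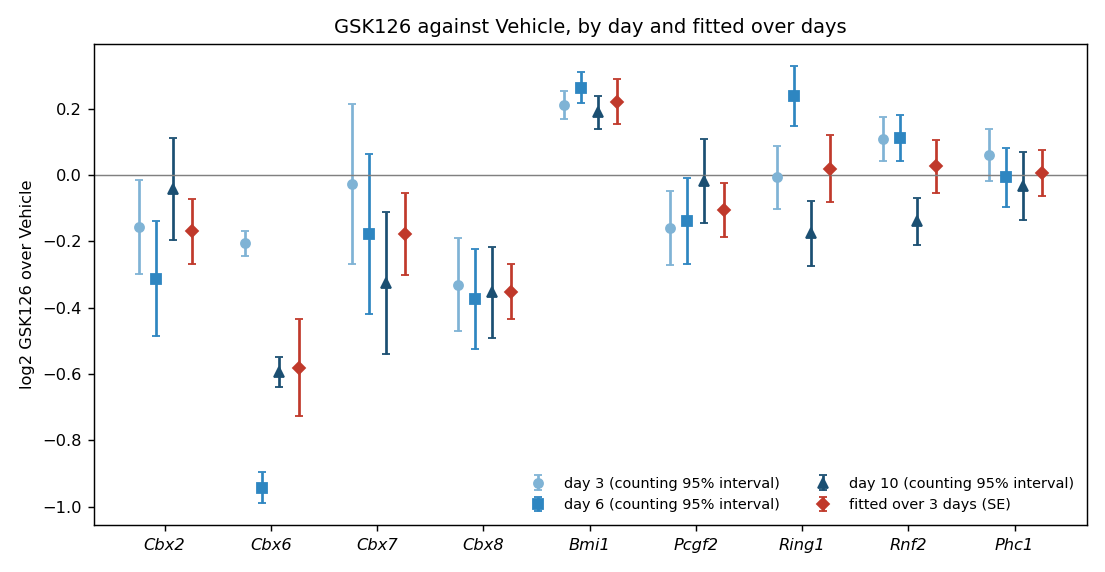
Log2 ratio of GSK126 to vehicle (y axis) for each member (x axis) on day 3, day 6 and day 10, with counting 95% intervals, and the difference fitted over the 3 days with its SE (red diamonds). The 3 days agree closely for Cbx8 and Bmi1, spread from -0.94 to -0.21 for Cbx6, and cross 0 for Ring1 and Rnf2.

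The balance between paralogs was computed from deposited RPKM, which do not carry the TMM scaling of the CPM. The 4 chromobox members together (Cbx2, Cbx6, Cbx7 and Cbx8) summed to 39.9, 26.8 and 32.6 RPKM in GSK126 libraries and 46.3, 44.4 and 47.2 RPKM in vehicle libraries on days 3, 6 and 10. The sum was lower with GSK126 on each day, with a ratio of 0.863, 0.603 and 0.691. Cbx6 made up 69.9%, 59.9% and 58.4% of that sum in GSK126 libraries and 69.1%, 69.5% and 63.5% in vehicle libraries. Relative to the summed RING transcripts (Ring1 and Rnf2), the chromobox sum stood at 1.31, 0.773 and 1.12 in GSK126 libraries and 1.596, 1.44 and 1.402 in vehicle libraries. The ratio of Bmi1 to Pcgf2 was 6.06, 7.03 and 5.59 in GSK126 libraries and 4.68, 5.32 and 4.84 in vehicle libraries, so that the GSK126 values did not overlap the vehicle values. The ratio of Rnf2 to Ring1 was 1.41, 1.13 and 1.29 in GSK126 libraries and 1.31, 1.23 and 1.26 in vehicle libraries, with overlapping ranges. These ratios are descriptions of transcript levels and carry no test.

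**Figure D3:**
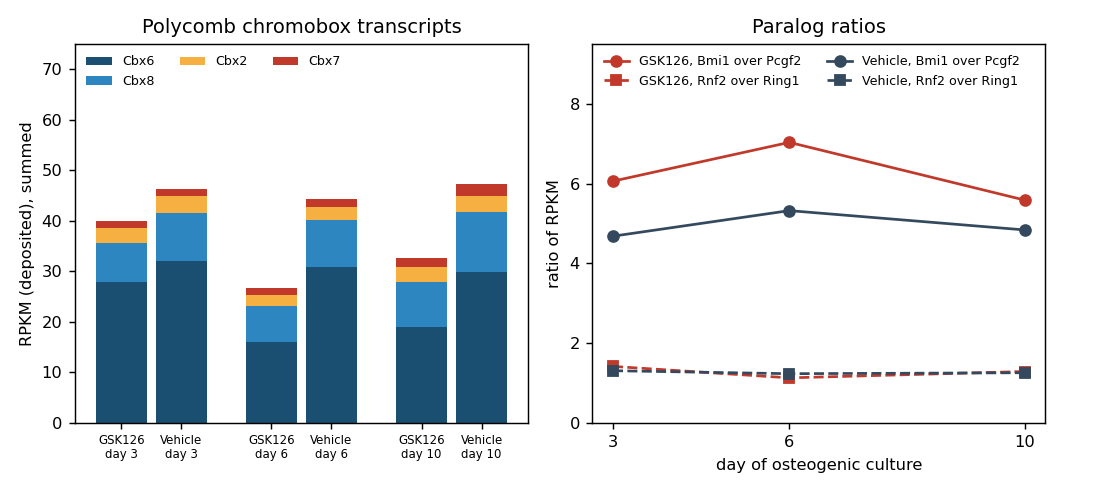
Left, summed deposited RPKM (y axis, from 0) of the 4 chromobox members in each of the 6 libraries, GSK126 beside vehicle for each day. Right, ratio of RPKM (y axis, from 0) of Bmi1 to Pcgf2 (solid) and of Rnf2 to Ring1 (dashed) against day of culture; the chromobox sum is lower and the Bmi1 to Pcgf2 ratio higher with GSK126 on every day, while the Rnf2 to Ring1 lines cross.

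The second comparison asks how PRC1 transcripts moved with culture time, averaged over both treatments. Phc1 fell and Cbx7 rose between days 3 and 10, and the other 7 members did not pass. The test called 1 of 9 members higher, against 14.1% of all genes, and 1 of 9 lower, against 12.5%, so the members' shares lay near the background. Phc1 fell by 0.53 on the log2 scale (SE 0.086, edgeR adjusted p = 0.0161), with a log2 ratio of day 10 to day 3 of -0.58 within GSK126 and -0.48 within vehicle. Cbx7 rose by 0.63 (SE 0.15, edgeR adjusted p = 0.0362), with ratios of 0.48 within GSK126 and 0.78 within vehicle. DESeq2 and limma-voom called the same 2 members. The calls were lost when any 1 library of day 3 or day 10 was left out, a set of alternatives chosen after seeing the data: the log2 difference of Phc1 then lay between -0.57 and -0.49 (edgeR adjusted p = 0.0582 to 0.134) and that of Cbx7 between 0.52 and 0.74 (edgeR adjusted p = 0.0669 to 0.199). The call of Cbx7 was also lost without day 6, where the difference was 0.66 (edgeR adjusted p = 0.051), and under library-size scaling (0.53, edgeR adjusted p = 0.0658). That scaling moved the median of all genes for day 10 to -0.107, and its calls were 1484 higher and 2644 lower, against 2026 and 1793 with TMM.

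Cbx8 came next, at 0.31 (SE 0.10, edgeR adjusted p = 0.0734), with ratios of day 10 to day 3 of 0.30 within GSK126 and 0.32 within vehicle. The reader transcripts thus did not share 1 course: Cbx6 stood at -0.45 within GSK126 and -0.06 within vehicle, and Cbx2 at 0.094 within GSK126 and -0.021 within vehicle. Bmi1 stood at -0.15 within GSK126 and -0.13 within vehicle, and Pcgf2 at -0.033 within GSK126 and -0.17 within vehicle. Ring1 stood at 0.11 within GSK126 and 0.28 within vehicle, and Rnf2 at -0.025 within GSK126 and 0.22 within vehicle. For Rnf2 the GSK126 libraries gave log2 ratios of 0.11 for day 6 over day 3 and -0.14 for day 10 over day 6, and the vehicle libraries gave 0.11 for both steps.

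**Figure D4:**
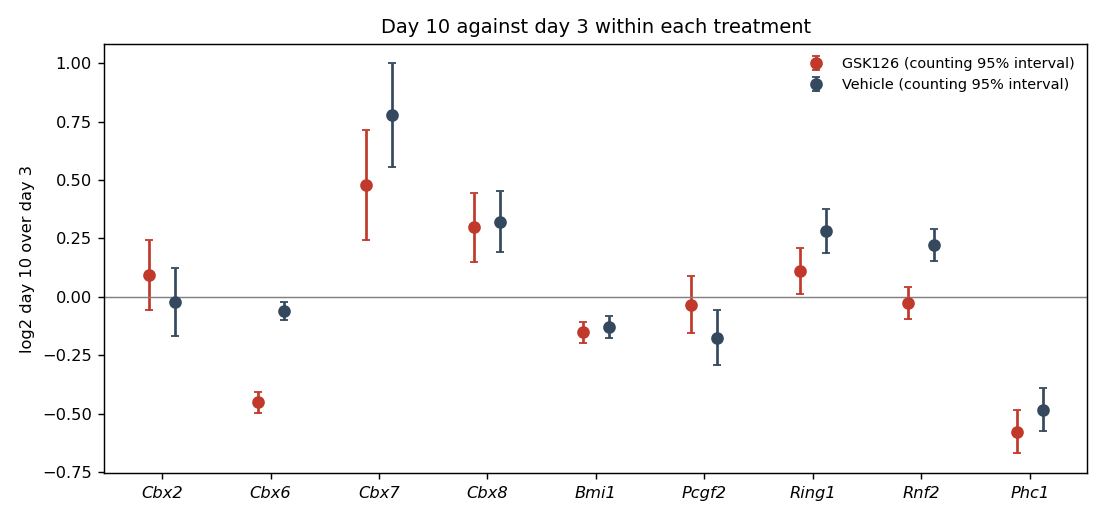
Log2 ratio of day 10 to day 3 (y axis) for each member (x axis) within GSK126 (red) and within vehicle (dark blue), 1 library against 1 library, with counting 95% intervals. Phc1 is lower and Cbx7 and Cbx8 are higher on day 10 in both treatments, and Cbx6 is farther below 0 within GSK126.

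The third comparison asks whether the difference between GSK126 and vehicle was another on day 10, after removal, than on days 3 and 6. The test called 0 of 9 members and 0 genes in all (0%) by edgeR, with 0 members and 1006 genes at an unadjusted p below 0.05, and DESeq2 called 0 members and 22 genes. The lowest adjusted p among members was that of Rnf2, with a log2 difference of -0.25 (SE 0.13, 95% interval -0.60 to 0.11, edgeR adjusted p = 0.746), followed by Ring1 at -0.29 (SE 0.18, 95% interval -0.77 to 0.19, edgeR adjusted p = 0.764). Cbx6 stood at -0.021 (SE 0.34) and Cbx8 at -0.0025 (SE 0.17), so the intervals are wide for Cbx6 (-0.93 to 0.89) and narrower for Cbx8 (-0.46 to 0.46). Cbx8 and Bmi1 had ratios on day 10 of -0.35 and 0.19, near their values on the earlier days.

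Other genes of the Polycomb ubiquitin system were counted in lists taken from general knowledge of the complexes. Of 6 further genes listed with canonical PRC1 (Phc2, Phc3, Scmh1, Scml2 and the related Sfmbt1 and Sfmbt2), 0 passed for GSK126, with 4 positive differences, a median of 0.22 and a range from -0.11 (Phc3, a paralog of Phc1) to 0.45 (Sfmbt2, a relative of the fly protein dSfmbt, which belongs to the separate PhoRC complex, edgeR adjusted p = 0.0814). Of 22 subunits of variant PRC1, which lacks a CBX reader, 0 passed, 10 were positive and the median was -0.0061. A further 7 genes were listed with the H2A deubiquitinases, which act against PRC1: Bap1, its partners Asxl1, Asxl2 and Asxl3, and Usp16, Mysm1 and Usp21. Of these 7, 0 passed and 3 were positive. The 3 HP1 chromoboxes (Cbx1, Cbx3, Cbx5), whose chromodomains bind a different mark, lay between -0.074 and -0.033, and 0 passed. Of all genes tested, 1.01% were called higher and 0.272% lower for GSK126, so few calls or none would stand in lists of these sizes at those shares. The median of all genes was -0.00076, and that of the 9 members was -0.11.

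With culture time, averaged over both treatments, 5 of the 22 variant PRC1 genes fell, against 12.5% of all genes, and 1 rose, against 14.1%, between days 3 and 10. These calls and those of the lists below rest on the same test as the calls of Phc1 and Cbx7, which were lost with a library left out. They were not followed gene by gene through such subsets. Fbrs, which encodes a fibrosin subunit of variant complexes, fell by 0.90 (SE 0.10, edgeR adjusted p = 0.011), Rybp, which links RING subunits to variant complexes, by 0.64 (SE 0.17, edgeR adjusted p = 0.0444), and the scaffold gene Dcaf7 by 0.58 (SE 0.092, edgeR adjusted p = 0.0158). Skp1a, a subunit shared with other ubiquitin ligases, was the 1 that rose, by 0.56 (SE 0.089, edgeR adjusted p = 0.0158). Of the 7 genes listed with the deubiquitinases 3 fell, against the same 12.5% of all genes: Asxl1, by 0.71, Mysm1, by 0.46, and Asxl2, by 0.45. Sfmbt2 was the 1 of the 6 genes listed with canonical PRC1 that fell, by 0.49, a share near that of all genes. The median difference was -0.11 over the 22 variant genes and -0.27 over the 7 genes listed with the deubiquitinases, against -0.0078 over all genes tested. Of 9 genes known as PRC1 targets, 7 passed the filter, with 5 positive and 2 negative differences for GSK126. Tbx2, a T-box repressor, was the 1 that rose, by 1.56 (SE 0.087, edgeR adjusted p = 0.00875), where 1.01% of all genes were called higher. Its paralog Tbx3 stood at -0.66 (SE 0.21, edgeR adjusted p = 0.177), Hoxa9 at -0.20 and the cell cycle inhibitor gene Cdkn1c, with 4 to 26 counts per library, at 2.25 (SE 0.44, edgeR adjusted p = 0.0766). Cdkn2a and Cdkn2b, cell cycle inhibitor genes known as targets of Bmi1, had 0 counts in all 6 libraries. The reason for their 0 counts was not tested. Cdkn1a, which encodes the inhibitor p21, had 108.5, 204.3 and 138.7 RPKM in GSK126 libraries and 86.3, 119.2 and 105.9 RPKM in vehicle libraries on days 3, 6 and 10 and did not pass (0.52, SE 0.11, edgeR adjusted p = 0.0877).

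The genes with the most similar log2 CPM were listed for the 3 members that varied the most over the 6 libraries. They were taken from at least 9445 other genes with a mean log2 CPM of at least 3. Those nearest to Cbx6 were Col12a1 (Pearson r = 0.996), Grk5 (0.994) and Parp14 (0.993). Those nearest to Cbx7 were Ddc (0.998), Athl1 (0.994) and Cog7 (0.993), and those nearest to Cbx8 were Wdr13 (0.995), Pgap2 (0.993) and Dhrs11 (0.989). Correlations above 0.95 were shared by 74 genes for Cbx6, at least 199 for Cbx7 and 60 for Cbx8. Cbx7 itself had a mean below the level asked of the listed genes. The 6 points share their library sizes and days, so these values only describe similar courses.

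The last comparison asks whether the mark that the readers bind lay over their own genes. H3K27me3 islands, regions of ChIP enrichment over input that the authors called with SICER, lay over 1 of 9 member spans in the GSK126 list, that of Ring1, against 14.8% of all 23358 gene spans. In the vehicle list they lay over 0 of 9, against 17.1%. The Ring1 island spanned chr17:34014001-34021400 and covered 609 bases at the 3′ end of the gene (span chr17:34020792-34024680, minus strand). It held 99 ChIP and 106 input reads, for a fold of 1.55 after the authors' scaling (adjusted p = 1.98e-05 in the authors' deposited list), against a median fold of 2.04 over the 24947 GSK126 islands. The vehicle list had its nearest island 11.4 kb from Ring1, on the 3′ side. None of the 8 member promoters in the RefSeq table, the 4 printed above included, touched an island in either list, where 6.81% of all promoters did in the GSK126 list and 7.42% in the vehicle list.

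In the GSK126 list 5 of 9 members had an island over the span or within 20 kb, against 35.8% of all spans, and in the vehicle list 4 of 9, against 42.9%, which is near that share. For Cbx6 an island lay 2.7 kb upstream in the GSK126 list (fold 1.71) and 5.9 kb upstream in the vehicle list (fold 1.98). For Bmi1 the nearest lay 14.2 kb upstream in the GSK126 list (fold 2.09) and 9.6 kb upstream in the vehicle list (fold 2.46). Phc1 had islands 9.2 kb upstream with GSK126 and 9.4 kb upstream with vehicle. As for all members, these distances run from the span in the authors' table. The RefSeq start of Phc1 lies between that span and these islands, so the islands are nearer to it. Rnf2 had its nearest 5.2 kb upstream in the GSK126 list and 21.0 kb upstream in the vehicle list. Both lists held an island 20.7 kb upstream of Cbx8, with a fold of 2.12 over 4.4 kb in the GSK126 list and 3.75 over 1.2 kb in the vehicle list. Cbx7 had none nearer than 45.8 kb in the GSK126 list and 64.8 kb in the vehicle list, and Pcgf2 none nearer than 52.0 kb and 49.6 kb.

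The GSK126 list held fewer and longer islands, 24947 with a median length of 5600 bases, against 34498 with a median length of 3400 bases in the vehicle list, and covered 166.7 Mb, against 147.9 Mb. The median fold of ChIP over input was 2.04 in the GSK126 list and 2.48 in the vehicle list. Island numbers, lengths and coverage were not adjusted here for read depth, so they do not measure the amount of the mark. A region outside the islands was not called and is not a measured absence. Among the 9 PRC1 target genes, 0 spans held an island in the GSK126 list and 1 did in the vehicle list (Gata6), against the 14.8% and 17.1% of all spans given above. Of the 6 genes listed with canonical PRC1, 1 held an island, Phc2, and of the 22 variant subunits, 1 did, Mga, both in each list, against the same shares of all spans. Each list rests on 1 ChIP and 1 input library, and the difference between lists was not tested.

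**Figure D5:**
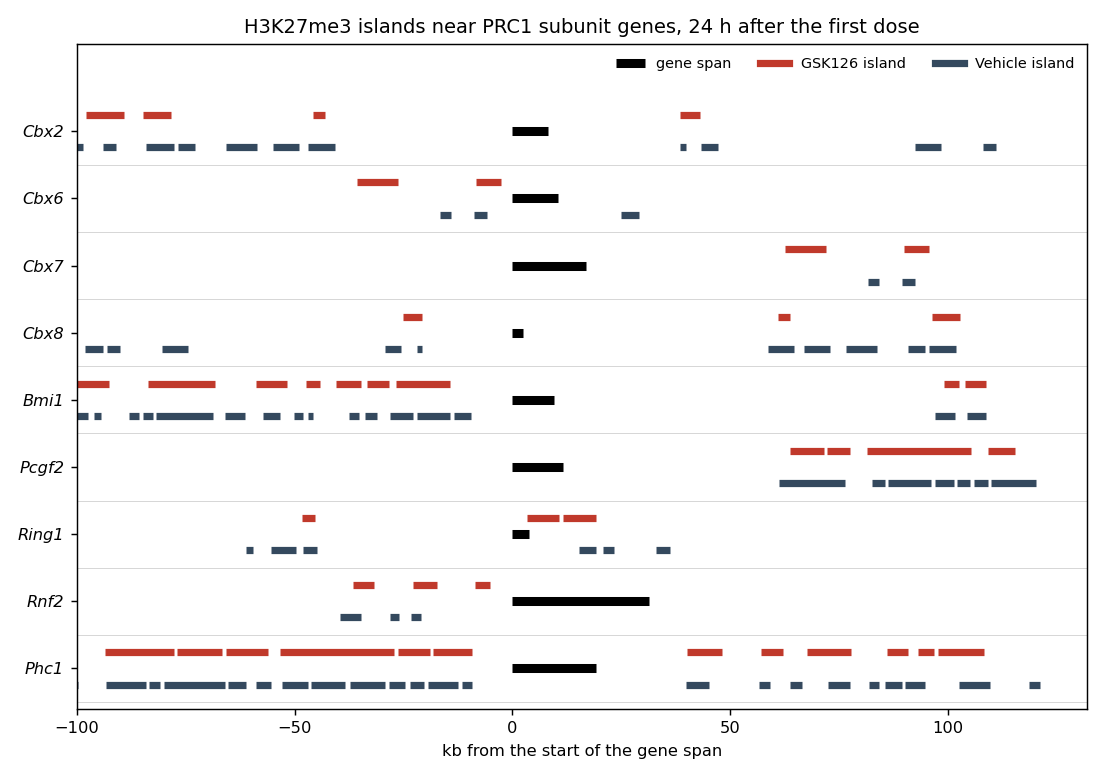
H3K27me3 islands of the GSK126 list (red, upper track) and the vehicle list (dark blue, lower track) near each member, by distance in kb from the start of the gene span (x axis), with the span in black, read in the direction of transcription except for Cbx2, shown by rising coordinate. The spans are free of islands but for the 3′ end of Ring1 in the GSK126 list.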

How the data were processed

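RNA was measured in 6 libraries and H3K27me3 ChIP with input in 4. Gene counts are whole numbers deposited by the authors without normalization, and every one was even, so the counting intervals used fragments, the count divided by 2, while the edgeR tests used the counts as deposited. The deposited RPKM values, per the file headers, were used to compare levels between genes. They also gave the paralog sums and ratios, the summed levels of gene lists and some levels by library and treatment. RPKM do not carry the TMM scaling, so their ratios between libraries differ somewhat from those of the CPM. Per the submitters' processing notes the tools were CASAVA 1.9, BWA 0.5.9, SICER 1.1, TopHat2 2.0.6 and HTSeq 0.5.3p9 on mm10. The counting mode and annotation release were not given in the sources used here. Illumina TruSeq v2 mRNA libraries, named in the labels, do not mark strand. The authors' island lists have no header; by SICER's layout they hold read counts, a p-value, a fold ratio of ChIP to input and an adjusted p-value, deposited once per treatment. Island positions were shifted by 1 to count from 1.

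R 4.3.3 and edgeR 4.0.16 gave the tests of differences (TMM scaling, filterByExpr, quasi-likelihood F, Benjamini-Hochberg threshold 0.05 over 14344 genes), with day and treatment as terms (2 residual degrees of freedom), and with a further term for treatment on day 10 (1 degree of freedom). The labels do not say that libraries came from separate cultures, so the p-values reflect only how these libraries vary, possibly for technical reasons. With 1 library per treatment and day, the residual of the first fit is how the treatment difference varies between days. In the fit with the further term it is how that difference varies between the days before day 10. Real change of the GSK126 difference over time and noise cannot be told apart in these residuals. The SE, intervals and p-values of all 3 comparisons therefore hold both. The SE is the log2 difference divided by the square root of F. The scripts were checked on simulated counts. Alternatives used DESeq2 1.42.0, limma 3.58.1 and other scalings, filters and subsets. A total of 32851 RefSeq promoters gave 8 of 9 members. Named genes were all 9 members, the called genes of each complex or pathway list (at most 4), and the 3 genes most similar in course to the 3 most variable members; further names, such as Npcd, Phc3, Tbx3, Hoxa9, Cdkn1c, the osteoblast markers, Cdkn1a, Cdkn2a and Cdkn2b, were chosen after their values were seen. The members and lists were chosen with earlier results of these data known. One gene of the canonical PRC1 list is not reported here.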

Additional observations from a re-analysis of the deposited data

Results flagged for a closer look

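The log2 ratio of GSK126 to vehicle had counting intervals on opposite sides of 0 on different days for Ring1 and Rnf2. For Ring1 it was 0.24 on day 6 and -0.18 on day 10, so day 10 minus day 6 came to -0.41. For Rnf2 it was 0.11 on days 3 and 6 and -0.14 on day 10, so day 10 came to -0.25 relative to day 3 (-0.2478) and to day 6 (-0.2512). These differences between single days rest on 1 pair of libraries each and were not tested. The term for day 10 against days 3 and 6 together did not pass for Ring1 (edgeR adjusted p = 0.764) or Rnf2 (edgeR adjusted p = 0.746).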

How the results depend on the processing

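The number of genes called for GSK126, 184, came to 1323 with DESeq2, to between 4 (without day 10) and 308 (without day 3) when a day was left out, and to 0 with no replicate block, that is with no term for day, so that libraries were no longer paired by day. For day 10 against day 3 the 3819 calls came to between 70 (without GSK126 day 3) and 3364 (without day 6); the single-library subsets among these were chosen after seeing the data. The removal term had 22 calls with DESeq2. Some fitted values changed sign. With library-size scaling Phc1 had -0.0023 for GSK126 and Cbx2 -0.062 for day 10, and with no filter Cbx8 had 0.0045 for removal. With a day or library left out, the GSK126 difference ranged from -0.019 to 0.11 for Rnf2, -0.014 to 0.027 for Phc1 and -0.094 to 0.12 for Ring1, and the day 10 difference from -0.54 to 0.028 for Cbx6, -0.057 to 0.14 for Cbx2 and -0.023 to 0.23 for Rnf2. The cause was not tested. Among alternative values of members, 5 of 99 for GSK126, 4 of 108 for day 10 and 1 of 63 for removal changed sign. Calls were gained in 2 for GSK126 and lost in 10 for day 10. Few or no genes passed in several of these fits, so a member that stayed uncalled there says nothing of stability. Member spans with a GSK126 island, 1 in the main overlap, numbered 0 at an adjusted p of at most 1e-10, at a fold of at least 3, with at least 50% of the island inside the span and within 2.5 kb of a start site, and 2 with spans widened by 5 kb, while the vehicle count was 0 in all 5. Counting intervals of the GSK126 ratio lay apart from 0 on each day, with 1 sign throughout, for Cbx6, Cbx8 and Bmi1. Those of Rnf2 also lay apart from 0 on each day, but above it on days 3 and 6 and below it on day 10. The intervals included 0 for Cbx7 on days 3 and 6, and for Cbx2 and Pcgf2 on day 10. They also did for Ring1 on day 3 and for Phc1 on days 3, 6 and 10. No test of depth was made.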
